A study of Mus musculus with 15 samples.

Results

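The complement, coagulation and fibrinolysis genes analysed here are 35 genes given by symbol, 19 of the complement system and 16 of coagulation and fibrinolysis, out of 23995 symbols measured in white fat from around the prostate of 15 male C57BL/6J mice. This depot is called periprostatic fat. All mice began their diet at 6 weeks of age and were killed at 26 weeks, and each of the 3 groups held 5 animals. LFD mice ate low-fat diet with 10 kcal% fat and had no pellet implanted. HFD placebo mice ate high-fat diet with 60 kcal% fat and, after 12 weeks on it, received a placebo pellet under the skin. HFD estradiol mice ate that high-fat diet and at that point received a pellet of 0.25 mg 17β-estradiol that releases the hormone over 60 days. Both pellet groups stayed on their diet for a further 8 weeks. LFD differs from HFD placebo in diet and in pellet placement, which cannot be told apart. RNA was taken from whole fat, so a change in the number of cells of a type and a change in RNA per cell cannot be told apart.

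Complement is a cascade of plasma proteins that tags particles and cells, calls in leukocytes and opens pores in membranes. The classical pathway begins with C1q bound to antibody or other targets, and its proteases cleave C4 and C2. The lectin pathway starts from sugar-binding proteins and Masp proteases. The alternative pathway is driven by factor B (Cfb), factor D (Cfd) and properdin (Cfp), and all pathways meet at C3 before the terminal components assemble the pore. In coagulation, tissue factor (F3) with factor VII starts a protease chain that ends in fibrin, which plasmin later dissolves. Adipose tissue is a known source of factor D, which is therefore also called adipsin, and of C3. Tissue macrophages are a known source of C1q.

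Levels are scaled FPKM, which counts fragments by transcript length and library total, divided by a factor that equalises the median gene between libraries. Where 5 values are given for a group, they belong to mice 1 to 5 in that order. Of the 35 genes, 24 reached a scaled FPKM of 1 in at least 5 libraries and were tested. The 11 others were Masp1, Vtn, F5, F7, F10, Procr, Tfpi, Tfpi2, Plaur, Serpinf2 and A2m. Changes given for these come from a fit of all genes above 0 in at least 5 libraries, called the fit without a filter. They rest on low values and are a description. Changes are log2 fold changes of scaled FPKM + 1 from limma with their standard errors (SE), on which scale the change of low genes is understated. P-values are Benjamini-Hochberg adjusted over the genes of each fit, which are 5615 tested genes in the fit as reported. A gene rose or fell where the adjusted p lay below 0.05. C3ar1 and C5ar1 lay below 1 in every LFD library. They passed the filter through all HFD placebo libraries, where they were high, with estradiol mice 1 and 3 for C3ar1 and estradiol mouse 1 for C5ar1. Their changes against HFD placebo or LFD, and counts over the tested genes, which include them, are therefore given as a description.

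Sums of deposited FPKM were 34449 to 38755 for LFD mice, 34544 to 105910 for HFD placebo mice and 37561 to 60725 for HFD estradiol mice, highest in HFD placebo mice 4 and 5. By an estimate from the lowest values, 20.6 to 221 fragments lay behind each unit of scaled FPKM for a transcript of 2 kb. File names place all LFD libraries and HFD placebo 1 to 3 on sequencing lane 5, and HFD placebo 4 and 5 and all HFD estradiol libraries on lane 6, so HFD estradiol and LFD share no lane. LFD mouse 5 stood apart by secretory genes of male accessory glands, with Sbp at 576 and Spink3 at 125, where the other 14 libraries had at most 0.152 and 0.187. The 8 adipocyte markers summed to 1224 to 1839 in LFD libraries, 850 to 1415 in HFD placebo libraries and 1200 to 1718 in HFD estradiol libraries. Of these markers 7 fell and 1 rose in HFD placebo against LFD, and 6 rose and 1 fell in HFD estradiol against HFD placebo.

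Promoter sequence is shown for Cfd, whose level moved furthest, and for C1qb and C1qc, which lie side by side and moved together. C6 and C7, neighbours of the terminal pathway, were added after their values and motifs were seen, so their motifs are a description. Each run is written 5′ to 3′ on the strand of the gene, taken from RefSeq on GRCm38.p6, and ends before the first start that RefSeq or GENCODE gives. Capitals mark matches, on either strand, to a nuclear receptor half-site (AGGTCA), to TTGCNNCAA for C/EBP, to GAGGAAGT for PU.1 or to TGANTCA for AP-1, none of which overlap in these runs.
Cfd, chr10:79890603-79890852, plus strand: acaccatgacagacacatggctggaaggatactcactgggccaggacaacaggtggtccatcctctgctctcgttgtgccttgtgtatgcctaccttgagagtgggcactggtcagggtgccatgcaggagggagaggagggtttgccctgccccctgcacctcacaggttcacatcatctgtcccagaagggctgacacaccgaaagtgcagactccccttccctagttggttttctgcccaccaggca
C1qb, chr4:136886201-136886450, minus strand: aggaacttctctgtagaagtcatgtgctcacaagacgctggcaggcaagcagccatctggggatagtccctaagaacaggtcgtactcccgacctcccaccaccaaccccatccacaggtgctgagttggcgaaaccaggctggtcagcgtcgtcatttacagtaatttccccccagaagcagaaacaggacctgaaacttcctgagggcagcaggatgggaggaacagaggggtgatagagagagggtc
C1qc, chr4:136893066-136893164, minus strand: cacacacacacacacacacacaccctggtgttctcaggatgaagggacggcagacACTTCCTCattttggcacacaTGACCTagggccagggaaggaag
C6, chr15:4726960-4727174, plus strand: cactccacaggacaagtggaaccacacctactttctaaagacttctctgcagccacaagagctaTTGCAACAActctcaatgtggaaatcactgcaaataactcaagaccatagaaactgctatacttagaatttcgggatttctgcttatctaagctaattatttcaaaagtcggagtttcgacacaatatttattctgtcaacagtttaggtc
C7, chr15:5063774-5064023, minus strand: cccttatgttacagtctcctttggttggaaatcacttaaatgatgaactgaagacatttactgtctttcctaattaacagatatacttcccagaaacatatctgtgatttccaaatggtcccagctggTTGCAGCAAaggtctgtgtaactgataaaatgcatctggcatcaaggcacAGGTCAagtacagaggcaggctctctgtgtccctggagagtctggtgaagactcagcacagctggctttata
The table of promoters held 24 of the 35 genes. In the 250 bases before the start, the half-site was found in 11 of these 24 and in 14% of 32817 promoters of all genes. Those 11 were the tested genes C1qc, C3, C6, C7 and Serpinf1, and F5, F7, F10, Procr, Serpinf2 and Tfpi2, which lay under the tested level. The C/EBP motif was found in C6 and C7 and in 1.74% of all promoters, and both also carried a half-site, that of C6 starting 40 bases before its RefSeq start and running past the end of the bases shown. C1qc held the PU.1 match, present in 2.44% of all promoters, 195 to 188 bases before its RefSeq start. AP-1 matches lay before C3ar1, F3, Plaur, Procr and Tfpi2, against 6.75% of all promoters. None of the 4 motifs was found before Cfd or C1qb. A match is a run of letters and was not tested as a binding site.

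In HFD placebo against LFD mice, 16 of the 24 tested genes changed, 10 up and 6 down, where 43.3% of all tested genes changed, 21.3% up and 22% down. The genes for the C1q chains, the anaphylatoxin receptors C3ar1 and C5ar1, C4b, Cfb, the C1 inhibitor Serping1, the urokinase gene Plau and Serpinf1 rose. Cfd, C2, C6, C7, clusterin (Clu) and thrombomodulin (Thbd) fell. The median log2 fold change was 0.39 over the 24 genes and -0.01 over all tested genes. Groups did not overlap for 15 of the 24, 10 above and 5 below, against 27.6% of all tested genes. With FPKM as deposited, which shifted the median over all genes up by 0.77, the split was 17 up and 1 down, and with FPKM at a constant sum, shifted by 0.29, it was 16 up and 4 down. As deposited, Cfd alone was called lower, the calls of C6 and Thbd were lost, C2, C7, Clu and Cd55 lay above 0 uncalled, at 0.01, 0.30, 0.16 and 0.87, and F3 was called higher at 0.65. Within lane 5, with HFD placebo 1 to 3, 18 genes changed, 13 up and 5 down, with C7 no longer called and C1ra, C3 and Cfp called higher. For counts under such other scalings, filters and lane settings, here and below, the share of all tested genes is not given. Those counts alone do not tell a change in these genes from a general change in calls.

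In HFD estradiol against HFD placebo mice, 16 of the 24 genes changed, 7 up and 9 down, against 30.4% of all tested genes, 14.3% up and 16% down. The C1q genes, C3ar1, C5ar1, Plau, Serpinf1, C7 and Serpine2 were lower with estradiol. Cfd, C2, C6, Clu, Cd55, F13a1 and Thbd were higher. The median log2 fold change was 0.01, as over all tested genes. Groups did not overlap for 7 of the 24, 4 above and 3 below, against 21.2% of all tested genes. Within lane 6, with HFD placebo 4 and 5, 8 genes changed, 4 up and 4 down, and the count was also 8 with the lane as a term. C1qb, C2, C3ar1, C7, Cd55, Cfd and Thbd were called in both. FPKM as deposited gave 1 up, Cfd, and 5 down, C1qb, C1qc, C7, C3ar1 and C5ar1, and FPKM at a constant sum gave 4 up and 8 down.

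In HFD estradiol against LFD mice, 13 of the 24 genes changed, 11 up and 2 down, against 7.69% of all tested genes, 3.95% up and 3.74% down. The 11 were C1qa, C1qb, C1qc, C1ra, C4b, Serping1, Cd55, F13a1, Plat, Plau and Serpinf1, and the 2 were C6 and C7. The median log2 fold change was 0.43 against -0.00 over all tested genes. Groups did not overlap for 9 of the 24, 8 above and 1 below, against 8.05% of all tested genes. The count was 8 when LFD mouse 2, LFD mouse 5 or HFD estradiol mouse 1, 2 or 3 was left out. It was 6 with the lane as a term, 3 of them among the 13, namely C1qb, C1qc and C7, a fit in which the lane effect comes from the HFD placebo mice alone. With FPKM as deposited 1 gene, C4b, was called, and at a constant sum 15 were up and 1 down.

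**Figure D1:**
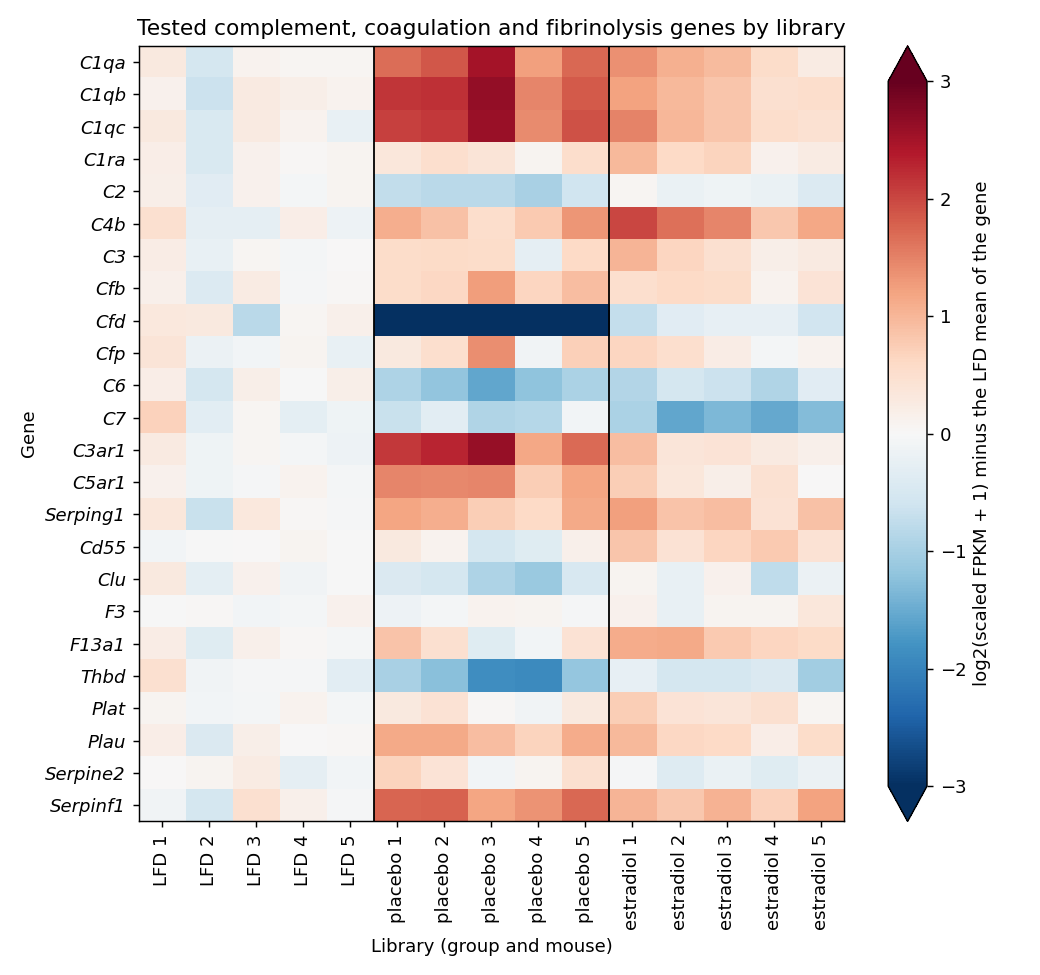
Heat map of the 24 tested genes (rows) in the 15 libraries (columns), as log2(scaled FPKM + 1) minus the LFD mean of that gene; colours end at 3 on either side, and the HFD placebo values of Cfd go past the scale. The C1q rows and C3ar1 are darkest red in HFD placebo, Cfd is dark blue there and near the LFD level in HFD estradiol, and C4b is reddest in HFD estradiol.

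C1qa, C1qb and C1qc encode the chains of C1q, the recognition molecule of the classical pathway. They lie on chromosome 4 of GRCm38 on the minus strand, C1qb at chr4:136880129-136886187, C1qc at chr4:136889804-136893065 and C1qa at chr4:136895917-136898803, with 3616 and 2851 bases between them and no other protein-coding gene. C1qa stood at 10.6, 5.54, 9.18, 8.79 and 8.76 in LFD, at 29.3, 33, 51.8, 21.2 and 30 in HFD placebo and at 23.5, 18.6, 17.3, 12.7 and 10.1 in HFD estradiol mice. C1qb read 8.97, 4.78, 9.89, 9.23 and 8.73 in LFD, 39, 40.7, 55.4, 24.1 and 31.6 in HFD placebo and 20.1, 16.8, 15.2, 11.8 and 12.2 in HFD estradiol mice. For C1qc the levels were 8.04, 4.43, 7.88, 6.95 and 5.39 in LFD, 29.6, 31.2, 43.3, 18.8 and 26.9 in HFD placebo and 19.8, 13.7, 12.2, 9.68 and 9.22 in HFD estradiol mice. For each chain all 5 HFD placebo mice lay above all 5 LFD mice, and for C1qb they also lay above all 5 estradiol mice. LFD mouse 2 was the lowest of its group for each chain, and HFD placebo mouse 3 was the highest of all. C1qb averaged 8.32 ± 2.03 in LFD, 38.1 ± 11.7 in HFD placebo and 15.2 ± 3.42 in HFD estradiol mice (SD, n = 5 each). In HFD placebo against LFD the log2 fold changes were 1.80 ± 0.23 for C1qa, 2.05 ± 0.21 for C1qb and 2.02 ± 0.22 for C1qc (SE), with limma adjusted p of 1.9e-05, 2.9e-06 and 3.9e-06. In HFD estradiol against HFD placebo they fell by 0.96 ± 0.23, 1.25 ± 0.21 and 1.16 ± 0.22 (limma adjusted p = 0.0054, 4.1e-04 and 9.3e-04). Within lane 6 the fall of C1qa was 0.64 (log2 fold change -0.64, limma adjusted p = 0.200) and C1qc had -0.81 (limma adjusted p = 0.095), neither called. Estradiol mice stayed above LFD mice by 0.84 for C1qa, 0.81 for C1qb and 0.86 for C1qc (limma adjusted p = 0.040, 0.031 and 0.026), calls that were lost for all 3 chains when LFD mouse 2, LFD mouse 5 or estradiol mouse 1, 2 or 3 was left out, and for C1qa also without LFD mouse 3 or 4.

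Levels of the chains kept close to each other, with C1qb at 0.843 to 1.08 times C1qa in LFD, 1.05 to 1.33 times in HFD placebo and 0.853 to 1.20 times in HFD estradiol libraries. Most macrophage markers moved with them in HFD placebo against LFD and in estradiol against HFD placebo. The 9 markers summed to 37.7 to 99.3 in LFD libraries, 115 to 369 in HFD placebo libraries and 47.6 to 126 in HFD estradiol libraries. On average this sum was mostly Lyz2, with means of 46.7, 146 and 50.6. Of 8 tested markers 6 rose with HFD placebo, and with estradiol against HFD placebo 5 fell and 1, the scavenger receptor Cd163, rose. Mertk was called in no comparison, and Mrc1 was not called lower with estradiol (-0.20, limma adjusted p = 0.317). In estradiol against LFD mice 2 of the 8, Cd68 and Mrc1, rose. The summed C1q level was 0.278 to 0.490 times the marker sum in LFD (median 0.397), 0.407 to 0.555 times in HFD placebo (median 0.514) and 0.504 to 0.718 times in HFD estradiol libraries (median 0.610). Cd68 alone had group means of 2.73, 31.6 and 6.12, beside 23.4, 101 and 44.6 for the summed C1q level. The order of the groups by such a ratio thus depends on the marker. The part of these markers in the C1q results was not tested.

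**Figure D2:**
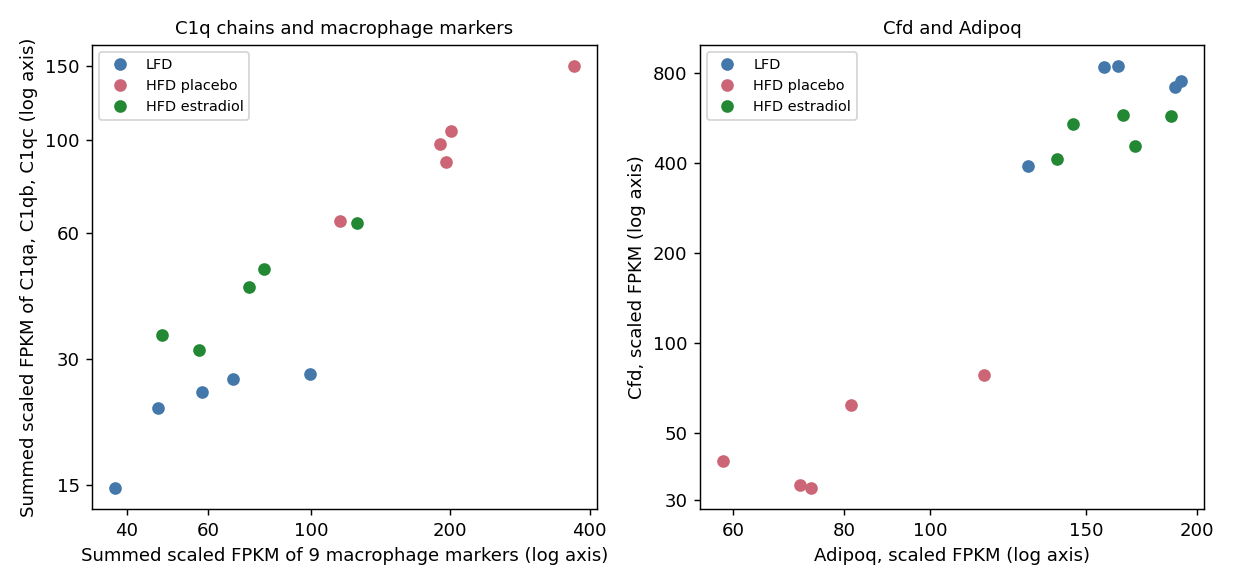
Each point is 1 library, with log axes; left, the summed scaled FPKM of C1qa, C1qb and C1qc against that of 9 macrophage markers, and right, Cfd against the adipocyte gene Adipoq in scaled FPKM. C1q runs with the marker sum, which is mostly Lyz2, with the HFD placebo libraries at the top, while Cfd in the HFD placebo libraries lies at 32.8 to 78.1, below every other library.

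C1ra encodes a C1r protease of the C1 complex and has a near-identical neighbour, C1rb, so its level is uncertain. It was 3.92, 2.15, 3.73, 3.42 and 3.6 in LFD mice, 4.5, 5.13, 4.65, 3.56 and 5.2 in HFD placebo mice and 7.42, 5.49, 5.88, 3.73 and 4.15 in HFD estradiol mice. Each pair of groups overlapped. The rise in HFD estradiol against LFD, 0.52 ± 0.15 (limma adjusted p = 0.049), was lost without any 1 LFD mouse or without estradiol mouse 1, 2 or 3, and without HFD placebo mouse 4 C1ra was also called higher in HFD placebo than in LFD. C2, the protease that C1 cleaves next to C4, went the other way from C1q. C2 stood at 3.37, 2.03, 3.21, 2.69 and 3.07 in LFD, at 1.29, 1.2, 1.18, 0.955 and 1.52 in HFD placebo and at 3, 2.32, 2.54, 2.35 and 1.87 in HFD estradiol mice. All 5 HFD placebo mice lay below the other 10 mice. C2 fell with HFD placebo by 0.79 ± 0.10 (limma adjusted p = 2.2e-05), although with FPKM as deposited its change was 0.01, and rose with estradiol by 0.61 ± 0.10 (limma adjusted p = 3.8e-04). C2 (chr17:34862604-34898265) ends 85 bases before Cfb (chr17:34856374-34862518) on the minus strand of chromosome 17, so reads near the junction may be shared.

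C4b encodes complement C4, which C1 cleaves and which tags surfaces covalently. It read 12.3, 6.94, 6.89, 9.87 and 7.54 in LFD, 19.3, 16.6, 12.7, 15.3 and 22.7 in HFD placebo and 37, 29.1, 25.2, 15.7 and 20.3 in HFD estradiol mice. All 10 mice on high-fat diet lay above all LFD mice, and estradiol and placebo mice overlapped. C4b averaged 8.70 ± 2.34, 17.3 ± 3.82 and 25.4 ± 8.19 in the 3 groups (SD, n = 5 each). The rise was 0.92 ± 0.21 with HFD placebo against LFD (limma adjusted p = 0.0023) and 1.42 ± 0.21 with estradiol against LFD (limma adjusted p = 8.0e-04). Estradiol minus HFD placebo was 0.50 ± 0.21 (95% interval 0.05 to 0.95, limma adjusted p = 0.088), not called except without estradiol mouse 4 and with quantile normalization (0.60, limma adjusted p = 0.050). With the lane as a term estradiol minus LFD was 1.21 (limma adjusted p = 0.090). C4b (chr17:34728380-34743882) has a near-identical copy, C4a, with means of 1.14, 2.20 and 3.31 in the 3 groups, and the sources used here do not say how the counting split shared reads.

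Masp1, a protease of the lectin pathway, was under the tested level, at 0.0858 to 0.277 in LFD mice, 0 to 0.0639 in HFD placebo mice and 0 to 0.0764 in HFD estradiol mice. All LFD libraries were above all others. Without the filter on low values it was called lower in both high-fat groups, by limma adjusted p of 0.0012 and 0.015. Few fragments lay behind values this low in LFD libraries, so this is a description.

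Cfd encodes factor D, the protease that cleaves factor B and that adipocytes secrete. It lies at chr10:79890853-79892655 on the plus strand and had the highest level of the 35 genes in every group mean. Cfd stood at 847, 842, 391, 717 and 756 in LFD, at 40.5, 33.6, 32.8, 78.1 and 62.1 in HFD placebo and at 414, 541, 580, 577 and 458 in HFD estradiol mice. Every HFD placebo library lay far below every other, and LFD and estradiol mice overlapped, with LFD mouse 3 the lowest of those 10. The mean was 14.4 times lower in HFD placebo than in LFD mice, and 10.4 times higher in HFD estradiol than in HFD placebo mice. As log2 fold changes this made -3.85 ± 0.25 and 3.42 ± 0.25 (limma adjusted p = 1.1e-07 and 8.5e-07). Estradiol minus LFD was -0.43 ± 0.25 (95% interval -0.96 to 0.11, limma adjusted p = 0.347), and with the lane as a term it was -1.38 (limma adjusted p = 0.043). With FPKM as deposited it lay on the other side of 0, at 0.38 (limma adjusted p = 0.513). The adipocyte gene Adipoq moved in those directions by less, -1.07 and 1.03. Cfd was 3.03 to 5.38 times Adipoq in LFD, 0.447 to 0.762 times in HFD placebo and 2.70 to 3.73 times in HFD estradiol libraries, so the ratio of HFD placebo lay below both other groups in every library. Cfd made up 73% to 89.4% of the summed level of the 35 genes in LFD libraries, 9.63% to 29.9% in HFD placebo libraries and 60% to 78.3% in HFD estradiol libraries. Without it the sum ran the other way, with medians of 132 in LFD, 277 in HFD placebo and 208 in HFD estradiol libraries.

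C3, the component on which the pathways converge, ranked 2, 3 and 2 by group mean among the 35 genes in LFD, HFD placebo and HFD estradiol mice and lies at chr17:57203970-57228136. C3 read 31.2, 22.5, 27.5, 25.5 and 26.8 in LFD, 39.4, 40.1, 39.4, 22 and 40.9 in HFD placebo and 54.7, 41.9, 37.4, 30.3 and 32.3 in HFD estradiol mice. HFD placebo mouse 4 lay below every LFD mouse, while the other 4 HFD placebo mice lay above all LFD mice. Estradiol mice lay above LFD mice except that estradiol mouse 4 was below LFD mouse 1. HFD placebo minus LFD was 0.41 ± 0.18 (limma adjusted p = 0.081), not called, and 0.57 (limma adjusted p = 0.0047) without HFD placebo mouse 4. Estradiol minus LFD was 0.52 ± 0.18 (limma adjusted p = 0.098). Cfb encodes factor B, the protease of the alternative C3 convertase. Its levels were 7.18, 4.54, 7.7, 6.19 and 6.45 in LFD, 9.76, 10.2, 16.5, 10.5 and 12.9 in HFD placebo and 9.44, 10, 9.8, 6.92 and 8.66 in HFD estradiol mice. All HFD placebo mice lay above all LFD mice, and estradiol mice lay between and overlapped both. Cfb rose with HFD placebo by 0.80 ± 0.15 (limma adjusted p = 4.5e-04). Estradiol minus HFD placebo was -0.36 ± 0.15 (95% interval -0.68 to -0.05, limma adjusted p = 0.075). Cfp, properdin, which stabilises that convertase, ranged from 2.87 to 4.88, from 3.18 to 10.9 and from 3.31 to 6.08 in LFD, HFD placebo and HFD estradiol mice. Its HFD placebo change of 0.57 ± 0.22 lay at the threshold (limma adjusted p = 0.050), and it was called without LFD mouse 1, HFD placebo mouse 1 or HFD placebo mouse 4.

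**Figure D3:**
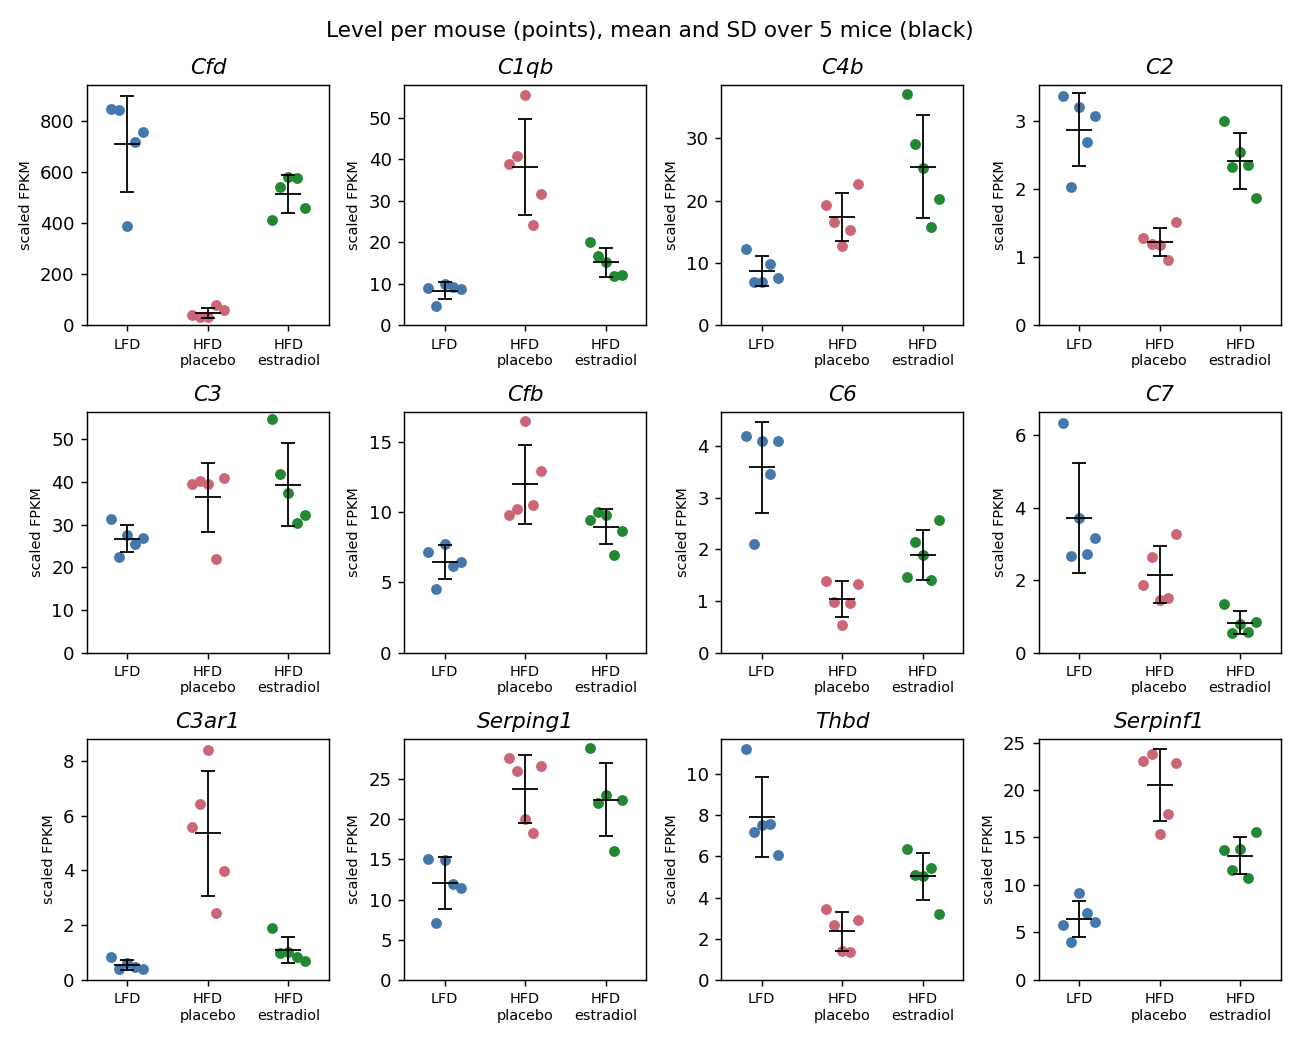
Scaled FPKM of 12 genes by group, 1 point per mouse, with the mean and SD over 5 mice in black and axes from 0. Cfd, C2, C6 and Thbd are lowest in HFD placebo, C1qb, C3ar1, Cfb and Serpinf1 highest there, C4b is higher in both high-fat groups than in LFD, and C7 is lowest in HFD estradiol; with FPKM as deposited the HFD placebo mean of C2 and C7 is not below that of LFD on the log2 scale.

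C6 and C7 join the growing pore at the end of the cascade. They lie on chromosome 15, C6 at chr15:4727175-4814967 on the plus and C7 at chr15:4988762-5063740 on the minus strand, 173794 bases apart, with 1 protein-coding gene between. C6 had levels of 4.19, 2.11, 4.09, 3.45 and 4.09 in LFD, 1.39, 0.974, 0.532, 0.964 and 1.32 in HFD placebo and 1.46, 2.15, 1.9, 1.4 and 2.57 in HFD estradiol mice. C7 had 6.34, 2.67, 3.71, 2.71 and 3.15 in LFD, 1.87, 2.63, 1.44, 1.51 and 3.28 in HFD placebo and 1.35, 0.551, 0.8, 0.564 and 0.854 in HFD estradiol mice. For C6 the HFD placebo mice were lowest, with no overlap with either other group, and for C7 the estradiol mice were lowest, also with no overlap. LFD mouse 1 carried the highest C7 by a wide gap. C6 fell with HFD placebo by 1.16 ± 0.16 (limma adjusted p = 2.4e-05), rose with estradiol against HFD placebo by 0.51 ± 0.16 (limma adjusted p = 0.021) and was below LFD in estradiol mice, at -0.66 ± 0.16 (limma adjusted p = 0.017). Within lane 6 the rise of C6 was 0.42 (limma adjusted p = 0.122), and it was not called without HFD placebo mouse 3 or estradiol mouse 5. With FPKM as deposited the fall of C6 with HFD placebo, at -0.36, and its place below LFD with estradiol, at -0.09, were not called (limma adjusted p = 0.318 and 0.799). The latter was also lost with FPKM at a constant sum (-0.39, limma adjusted p = 0.126) and with the lane as a term (-0.80, limma adjusted p = 0.126). C7 fell with estradiol by 0.77 ± 0.19 against HFD placebo and by 1.34 ± 0.19 against LFD (limma adjusted p = 0.0066 and 7.5e-04), the latter with a mean of 0.824 ± 0.324 against 3.72 ± 1.53 (SD, n = 5 each). The fall of C7 with HFD placebo, 0.57 ± 0.19 (limma adjusted p = 0.027), was not called within lane 5 or without LFD mouse 1 or HFD placebo mouse 1, 3 or 4, and with FPKM as deposited the value was 0.30. At a constant sum it was not called either (-0.25, limma adjusted p = 0.421). With FPKM as deposited C7 in estradiol against LFD was -0.78, not called (limma adjusted p = 0.284). Mesothelial markers, 6 genes of the lining of the body cavity, summed to 2.90 to 9.29 in LFD libraries, 0.967 to 4.85 in HFD placebo libraries and 2.64 to 7.18 in HFD estradiol libraries, and their part in these results was not tested.

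C3ar1 and C5ar1 are the receptors for the inflammatory fragments of C3 and C5, at chr6:122847138-122856161 and chr7:16246743-16259540. C3ar1 was 0.832, 0.385, 0.596, 0.47 and 0.378 in LFD, 5.59, 6.42, 8.39, 2.43 and 3.97 in HFD placebo and 1.9, 0.961, 1.01, 0.831 and 0.683 in HFD estradiol mice. C5ar1 was 0.476, 0.223, 0.307, 0.431 and 0.281 in LFD, 2.68, 2.63, 2.72, 1.22 and 2.05 in HFD placebo and 1.24, 0.708, 0.522, 0.844 and 0.362 in HFD estradiol mice. Both were highest in HFD placebo mice, without overlap with LFD, and estradiol mouse 1 was the highest of its group for both. They rose with HFD placebo by 1.98 ± 0.21 and 1.26 ± 0.14 and fell with estradiol by 1.56 ± 0.21 and 0.90 ± 0.14. Both genes passed the filter on low values through the HFD placebo mice and few others, so these values are a description. For C5ar1 the fall within lane 6 was 0.60 (log2 fold change -0.60, limma adjusted p = 0.076). Estradiol minus LFD was 0.42 ± 0.21 and 0.35 ± 0.14 (limma adjusted p = 0.276 and 0.167), not called, and with the lane as a term 1.32 and 0.85 (limma adjusted p = 0.022 and 0.043). C3ar1 was 0.00809 to 0.0102 times the macrophage marker sum in LFD, 0.0203 to 0.0319 times in HFD placebo and 0.0119 to 0.0175 times in HFD estradiol libraries, 3 ranges that do not overlap. That sum was mostly Lyz2, and single markers differed widely. In HFD placebo the mean of C3ar1 was 10.1 times that of LFD, and the markers ran from 0.718 (Cd163) to 11.6 times (Cd68), with Lyz2 at 3.12. In HFD estradiol C3ar1 was 0.201 times HFD placebo, beside 0.347 for Lyz2 and 0.194 for Cd68. The part of these markers in the C3ar1 result was not tested.

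Serping1 encodes the C1 inhibitor, a serpin that blocks the C1 and Masp proteases, at chr2:84765387-84775444. It measured 15, 7.02, 14.9, 12 and 11.4 in LFD, 27.7, 26, 20.1, 18.3 and 26.7 in HFD placebo and 28.9, 22, 23.1, 16 and 22.4 in HFD estradiol mice. Both high-fat groups lay wholly above LFD and overlapped each other. Serping1 rose by 0.95 ± 0.19 with HFD placebo and by 0.87 ± 0.19 with estradiol against LFD (limma adjusted p = 8.4e-04 and 0.011), and estradiol minus HFD placebo was -0.08 ± 0.19 (95% interval -0.48 to 0.32). With the lane as a term the change of Serping1 from LFD to estradiol was 1.00 (limma adjusted p = 0.120). The 8 fibroblast and progenitor markers summed to 77.9 to 125 in LFD libraries, 109 to 223 in HFD placebo libraries and 129 to 222 in HFD estradiol libraries. Of these markers 5 rose with HFD placebo against LFD, 2 rose and 2 fell with estradiol against HFD placebo, and 2, Lum and Pdgfra, rose with estradiol against LFD. The markers did not share 1 course. Lum, a collagen-binding proteoglycan, had log2 fold changes of 2.07 with HFD placebo against LFD, 1.94 with estradiol against LFD and -0.13 between the high-fat groups. In that order Col3a1 had 1.20, 0.08 and -1.13, Col1a1 had 1.17, 0.31 and -0.85, and Pi16 had -0.25, 0.69 and 0.94. The part of these markers in the results for C4b and Serping1 was not tested.

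Cd55, decay-accelerating factor, is a membrane protein that takes apart C3 convertases on the body's own cells. It measured 4.13, 4.37, 4.45, 4.69 and 4.35 in LFD, 5.63, 4.8, 2.72, 3.19 and 5.04 in HFD placebo and 8.58, 6.25, 7.47, 8.25 and 6.26 in HFD estradiol mice. Every estradiol mouse lay above every other mouse. Cd55 rose by 0.69 ± 0.14 against HFD placebo and by 0.62 ± 0.14 against LFD (limma adjusted p = 0.0015 and 0.013), the second not called with the lane as a term (0.68, limma adjusted p = 0.152). HFD placebo minus LFD was -0.07 ± 0.14 (95% interval -0.37 to 0.23), and 0.87 (limma adjusted p = 0.061) with FPKM as deposited. Clusterin (Clu), a chaperone that binds the terminal complex, read 5.03, 3.05, 4.4, 3.64 and 3.88 in LFD, 2.64, 2.45, 1.59, 1.28 and 2.57 in HFD placebo and 4.22, 3.24, 4.38, 1.94 and 3.41 in HFD estradiol mice. HFD placebo mice lay below LFD mice without overlap, and estradiol mice overlapped both. Clu fell with HFD placebo by 0.70 ± 0.17 (limma adjusted p = 0.0034), although with FPKM as deposited the value was 0.16. It rose with estradiol against HFD placebo by 0.51 ± 0.17 (limma adjusted p = 0.032), a call lost without HFD placebo mouse 3 or 4 or estradiol mouse 1, 2, 3 or 5, and within lane 6 (0.61, limma adjusted p = 0.152). Vtn, vitronectin, another inhibitor of the terminal complex, stayed under the tested level with means of 0.469, 0.523 and 0.623.

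**Figure D4:**
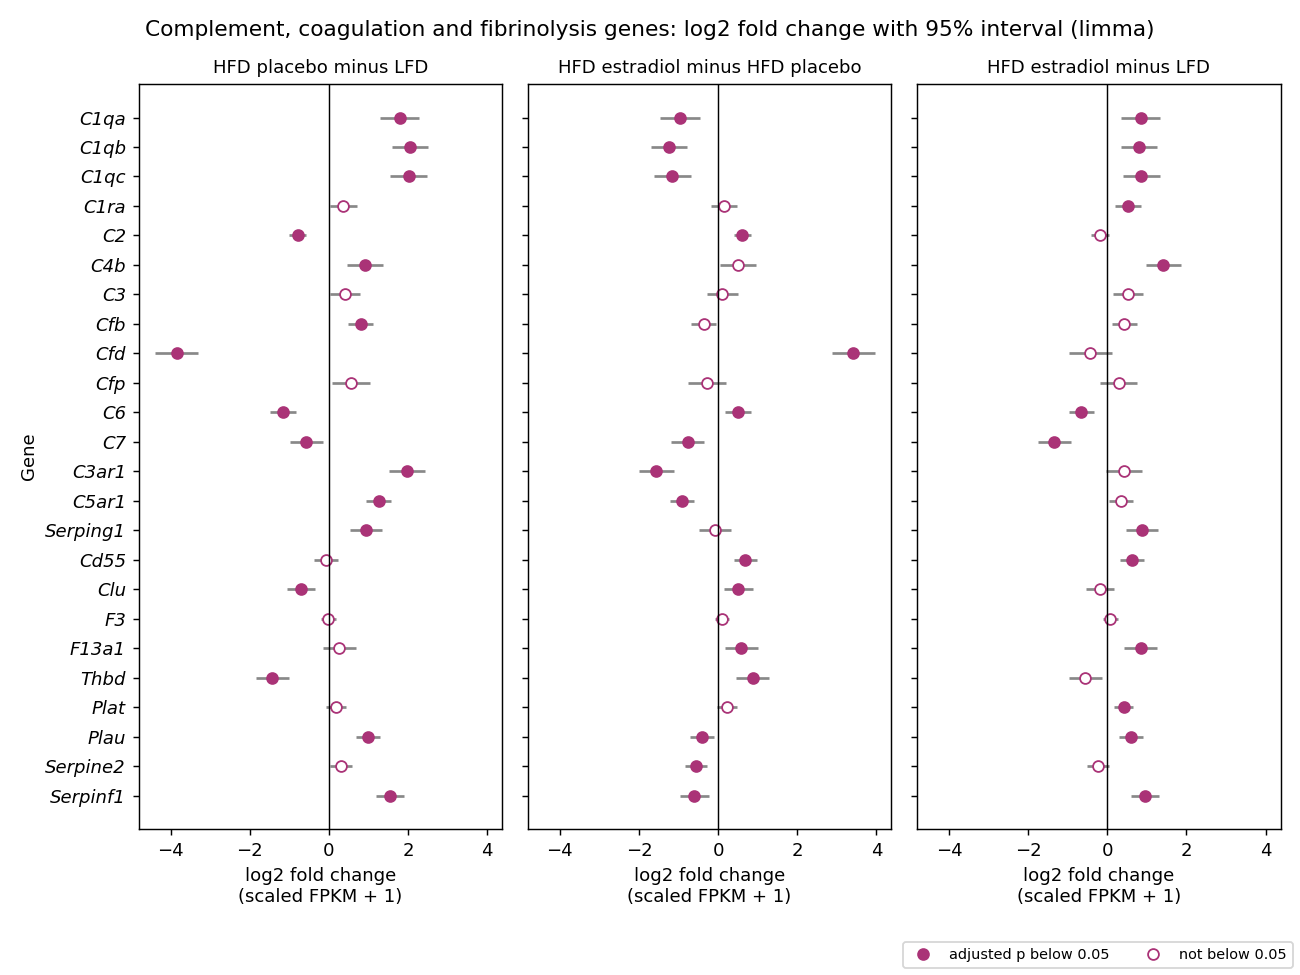
Log2 fold change of scaled FPKM + 1 with its 95% interval for the 24 tested genes in the 3 comparisons; filled points have a limma adjusted p below 0.05. Cfd lies at -3.85 in the left panel and at 3.42 in the middle panel, and in the right panel 11 filled points lie above 0 and 2, C6 and C7, below; with FPKM as deposited C2, C7, Cd55, Clu and F3 turn to the other side of 0 in the left panel, C1ra, C3 and F3 in the middle panel and C2, Cfd, Clu, Thbd and Serpine2 in the right panel.

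Among the coagulation factors, tissue factor (F3), which starts the chain, did not pass the test in any comparison, other than higher with HFD placebo with FPKM as deposited, with means of 1.03, 1.02 and 1.16 in LFD, HFD placebo and HFD estradiol mice. F13a1 encodes the A chain of factor XIII, which cross-links fibrin. Its levels were 5.44, 3.28, 5.13, 4.68 and 4.33 in LFD, 8.94, 6.66, 3.27, 4.22 and 6.43 in HFD placebo and 10.9, 11.1, 8.45, 7.56 and 7.2 in HFD estradiol mice. All estradiol mice lay above all LFD mice, and HFD placebo mice overlapped both. F13a1 rose in estradiol against LFD mice by 0.84 ± 0.20 (limma adjusted p = 0.016), and by 0.58 ± 0.20 against HFD placebo (limma adjusted p = 0.034), the latter not called within lane 6 (0.67, limma adjusted p = 0.067) nor without HFD placebo mouse 3 or 4 or estradiol mouse 1, 2 or 3. With the lane as a term the rise against LFD was 0.99 (limma adjusted p = 0.137).

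The factors F5, F7 and F10, known mainly as liver products, lay under the tested level. F7 ranged from 0 to 0.133 in LFD mice, from 0.313 to 1.11 in HFD placebo mice and from 0.014 to 0.325 in HFD estradiol mice, so that HFD placebo lay above LFD without overlap. In the fit without a filter on low values F7 was called higher in HFD placebo against LFD and lower in estradiol against HFD placebo, at log2 fold changes of 0.72 and -0.69 (limma adjusted p = 1.1e-04 and 2.7e-04). F10, 1498 bases downstream of F7, averaged 0.191, 0.454 and 0.159, and F5 averaged 0.645, 0.442 and 0.331, with overlapping groups. Without a filter F10 was called lower in estradiol against HFD placebo, at -0.31 (limma adjusted p = 0.044). Of 6 hepatocyte markers Ttr was at 0 in every library, and their sum was at most 2.79, in LFD, nearly all from Alb.

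Thbd encodes thrombomodulin, the endothelial receptor that turns thrombin toward activating protein C, a brake on clotting, at chr2:148404466-148408188. Thbd stood at 11.2, 7.18, 7.53, 7.55 and 6.09 in LFD, at 3.45, 2.68, 1.4, 1.33 and 2.9 in HFD placebo and at 6.38, 5.11, 5.05, 5.44 and 3.22 in HFD estradiol mice. Every HFD placebo mouse lay below every LFD mouse, and the highest of them overlapped the lowest estradiol mouse. Thbd fell with HFD placebo by 1.43 ± 0.20 (limma adjusted p = 3.0e-05) and rose with estradiol against HFD placebo by 0.88 ± 0.20 (limma adjusted p = 0.0030). With FPKM as deposited these changes were -0.50 and 0.65, neither called (limma adjusted p = 0.246 and 0.608). Estradiol minus LFD was -0.56 ± 0.20 (95% interval -0.98 to -0.14, limma adjusted p = 0.102), and 0.15 with FPKM as deposited. The 7 endothelial markers summed to 21 to 24.4 in LFD libraries, 18.1 to 26.0 in HFD placebo libraries and 18.9 to 22.3 in HFD estradiol libraries, overlapping ranges. Of them 2 fell with HFD placebo against LFD, Kdr, a VEGF receptor, by 0.43 and Emcn, endomucin, by 0.32 (limma adjusted p = 0.0079 and 0.040), and 1, the angiopoietin receptor Tek, rose with estradiol against HFD placebo by 0.33 (limma adjusted p = 0.0058). The part of these markers in the Thbd result was not tested.

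The other anticoagulants lay under the tested level. Procr, the endothelial protein C receptor, had means of 0.683, 0.674 and 0.688, and Tfpi, which blocks tissue factor, had 0.956, 0.850 and 0.933. Tfpi2, a related inhibitor, ranged from 0 to 0.240 in LFD mice, 0.321 to 0.520 in HFD placebo mice and 0.0885 to 0.202 in HFD estradiol mice, so HFD placebo lay above both other groups without overlap. In the fit without a filter it was called in both comparisons, at 0.36 and -0.29 (limma adjusted p = 4.0e-04 and 0.0038).

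Plasminogen is activated by Plau, urokinase, and by Plat, tissue plasminogen activator. Plau measured 2.16, 1.05, 2.14, 1.76 and 1.85 in LFD, 5.06, 5.08, 4.25, 3.35 and 4.93 in HFD placebo and 4.41, 3.26, 3.17, 2.18 and 3.01 in HFD estradiol mice. Both high-fat groups lay above LFD without overlap. Plau rose by 0.99 ± 0.14 with HFD placebo and by 0.59 ± 0.14 with estradiol against LFD (limma adjusted p = 4.6e-05 and 0.018). Its fall with estradiol against HFD placebo, 0.40 ± 0.14 (limma adjusted p = 0.042), was lost without HFD placebo mouse 1, 2, 3 or 5 or estradiol mouse 2, 3, 4 or 5, and within lane 6 (log2 fold change -0.29, limma adjusted p = 0.367). Plat ranged from 1.12 to 1.41, from 1.07 to 2.03 and from 1.33 to 2.75 in the 3 groups, and rose only in estradiol against LFD, by 0.41 ± 0.11 (limma adjusted p = 0.040), a call lost without LFD mouse 1, 2, 3 or 5 or estradiol mouse 1, 2, 3 or 4, while without estradiol mouse 5 Plat was also called higher than in HFD placebo. Plaur, the urokinase receptor, was under the tested level at 0.0713 to 0.329 in LFD mice, 0.648 to 1.55 in HFD placebo mice and 0.0797 to 0.939 in HFD estradiol mice. HFD placebo lay above LFD there, and in the fit without a filter Plaur was called in both comparisons, at 0.72 and -0.64 (limma adjusted p = 0.0014 and 0.0048).

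Serpinf1 encodes PEDF, a secreted serpin with no known protease target, at chr11:75409769-75422701, with Serpinf2, the plasmin inhibitor, 9030 bases away. Serpinf1 measured 5.73, 4.03, 9.17, 7.08 and 6.11 in LFD, 23.1, 23.8, 15.4, 17.5 and 22.8 in HFD placebo and 13.7, 11.6, 13.8, 10.7 and 15.6 in HFD estradiol mice. LFD mice were lowest and estradiol mice lay above them without overlap, while HFD placebo and estradiol mice overlapped at 15.4 and 15.6. Serpinf1 rose with HFD placebo by 1.55 ± 0.17 (limma adjusted p = 3.8e-06), fell with estradiol against HFD placebo by 0.60 ± 0.17 (limma adjusted p = 0.013, and 0.058 within lane 6 at -0.59) and stayed above LFD by 0.95 ± 0.17 (limma adjusted p = 0.0030). The last 2 calls were lost with the lane as a term (-0.59 and 0.98, limma adjusted p = 0.116 and 0.091). They were also lost with FPKM as deposited (-0.94 and 1.63, limma adjusted p = 0.369 and 0.052). Serpinf2 was listed at 0 in 14 libraries and A2m, a broad protease inhibitor of plasma, in all 15. Serpine2, protease nexin-1, an inhibitor of thrombin and urokinase, was 2.72, 2.89, 3.35, 2.02 and 2.48 in LFD, 4.81, 3.91, 2.46, 2.9 and 4.12 in HFD placebo and 2.59, 1.79, 2.17, 1.84 and 2.22 in HFD estradiol mice. The groups overlapped. Serpine2 fell with estradiol against HFD placebo by 0.55 ± 0.13 (limma adjusted p = 0.0045), a call lost with the lane as a term (-0.52, limma adjusted p = 0.071) and with FPKM as deposited (-0.86, limma adjusted p = 0.239). HFD placebo minus LFD was 0.31 ± 0.13 (limma adjusted p = 0.065), called without LFD mouse 3 or HFD placebo mouse 3 or 4, with FPKM as deposited (1.19) and at a constant sum (0.66).

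Sorted by the calls in the 3 comparisons, 5 genes, C1qa, C1qb, C1qc, Plau and Serpinf1, rose with HFD placebo, fell with estradiol against HFD placebo and were above LFD with estradiol. C3ar1 and C5ar1 shared the first 2 steps, with no call between estradiol and LFD. The opposite course, down with HFD placebo and up with estradiol with no call between estradiol and LFD, was that of 4 genes, Cfd, Thbd, C2 and Clu, of which with FPKM as deposited Cfd alone was called in either step, and C2 and Clu did not lie below LFD. C4b and Serping1 were up in both high-fat groups with no call between them. Cd55 and F13a1 were up with estradiol in both comparisons and not called for HFD placebo. C7 was down in all 3 comparisons as reported. Its HFD placebo change was 0.30 with FPKM as deposited, and that fall was not called at a constant sum, within lane 5 or without some of the mice. With FPKM as deposited its fall in estradiol against LFD was not called either. Estradiol minus HFD placebo and the other comparisons share libraries, so these courses are not independent of each other. The courses rest on the calls as reported, and the share of all tested genes with each course is not given. Several calls were lost when a mouse was left out, among them the fall of Plau and the rises of Clu and F13a1 against HFD placebo. The calls of the C1q genes above LFD with estradiol were lost in that way too.

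Of 76 other complement, coagulation and fibrinolysis genes 75 were among the symbols and 26 were tested. In HFD placebo against LFD 13 rose and none fell, at an adjusted p below 0.05 in limma, where 21.3% of all tested genes rose and 22% fell, with median log2 fold changes of 0.31 and, over all tested genes, -0.01. With estradiol against HFD placebo 1 rose and 9 fell, where 14.3% of all tested genes rose and 16% fell. With estradiol against LFD 9 rose and none fell, against 3.95% and 3.74% of all tested genes. Genes of the leukocyte integrins that bind cleaved C3 rose with HFD placebo and fell with estradiol. Itgax (CD11c) passed the filter on low values through the HFD placebo mice and 1 estradiol mouse, so its values are a description. It was 0.0687 to 0.288 in LFD mice, 2.11 to 4.65 in HFD placebo mice and 0.224 to 1.64 in HFD estradiol mice, with log2 fold changes of 2.04 ± 0.19 and -1.71 ± 0.19. Itgb2, the shared beta chain, had 1.74 ± 0.25 and -1.62 ± 0.25 (limma adjusted p = 4.0e-05 and 1.5e-04). Cd93, once taken for a C1q receptor, had 0.68 ± 0.08 and -0.69 ± 0.08, and its groups did not overlap in either comparison.

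Anxa2, a cell-surface binder of plasminogen and Plat, rose with HFD placebo by 0.84 ± 0.12 and fell with estradiol against HFD placebo by 0.99 ± 0.12 (limma adjusted p = 4.7e-05 and 2.7e-05), while Serpinb6a, an intracellular serpin, rose by 1.04 ± 0.13 and fell by 0.59 ± 0.13. Pros1, protein S, the cofactor of activated protein C, rose by 0.70 ± 0.11 and fell by 0.31 ± 0.11 (limma adjusted p = 1.1e-04 and 0.041). Thbs1, thrombospondin-1 of platelets and stroma, was 1.86, 0.784, 1.56, 1.82 and 1.12 in LFD, 11.4, 9.06, 5.69, 4.27 and 7.96 in HFD placebo and 6.29, 7.37, 11.9, 24.6 and 12.2 in HFD estradiol mice. All high-fat mice lay above all LFD mice, and Thbs1 rose by 1.79 ± 0.29 and, with estradiol against LFD, by 2.34 ± 0.29 (limma adjusted p = 1.5e-04 and 2.2e-04). Fcna, ficolin A, a sugar-binding starter of the lectin pathway, was 2.62, 1.6, 1.9, 1.63 and 1.63 in LFD, 2.32, 2.9, 1.47, 1 and 2.5 in HFD placebo and 5.81, 6.6, 4.29, 6.26 and 3.19 in HFD estradiol mice. Every estradiol mouse lay above every other mouse, and Fcna rose with estradiol by 1.04 ± 0.19 against HFD placebo and by 1.09 ± 0.19 against LFD (limma adjusted p = 6.0e-04 and 0.0022). The platelet and red cell markers summed to 26.1 to 79.4, 24.2 to 164 and 18.9 to 46.0 in the 3 groups, and the 4 neutrophil markers to 0.237 to 2.87, 2.56 to 5.09 and 0.398 to 0.743. On average the latter sum was mostly S100a8, with means of 0.803, 3.73 and 0.487, while S100a9, Ngp and Retnlg were at 0 to 0.532 in every library. The platelet and red cell sum was mostly the red cell gene Hba-a1, with means of 37.7, 52.7 and 32.8. Pf4, a platelet gene, rose with HFD placebo against LFD by 0.78 (limma adjusted p = 0.0026) and was not called in the other comparisons. The platelet markers Ppbp, Itga2b and Gp9 lay under the tested level and did not share this rise. Their means in LFD and HFD placebo were 0.156 and 0.163 for Ppbp, 0.0329 and 0.0271 for Itga2b, and 0.0892 and 0.0107 for Gp9. The part of all these markers in these results was not tested.

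**Figure D5:**
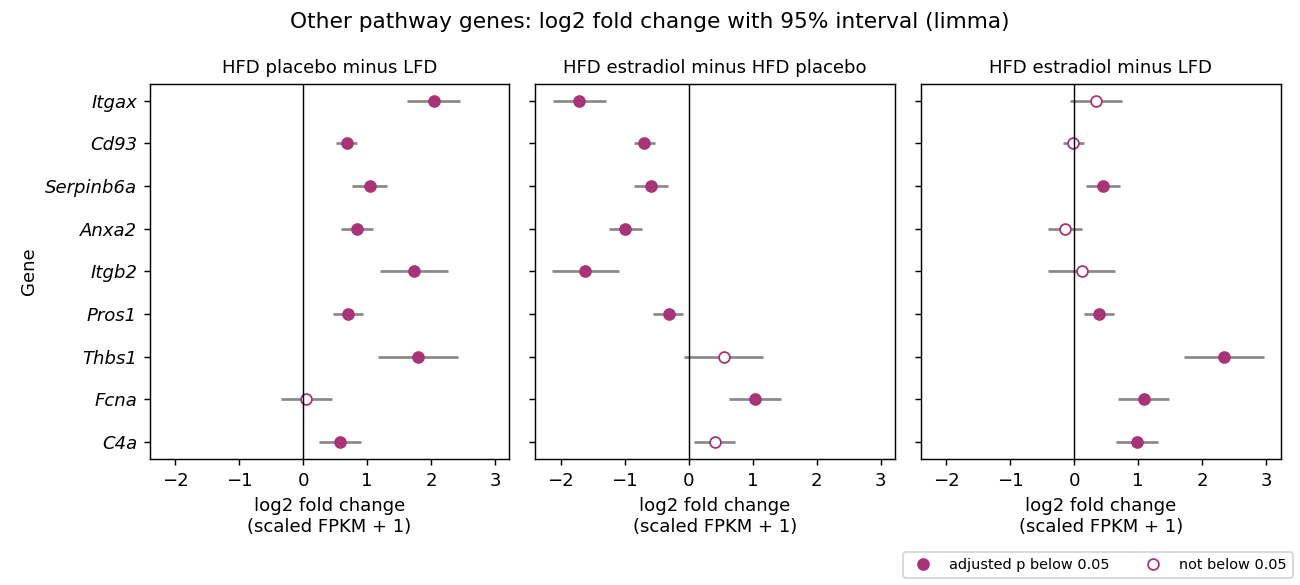
Log2 fold change of scaled FPKM + 1 with its 95% interval for 9 of the 10 other pathway genes with the smallest adjusted p, in the 3 comparisons; filled points have a limma adjusted p below 0.05. In the left panel 8 of the 9 lie above 0 and are filled, in the middle panel 6 are filled below 0 and Fcna above, and in the right panel Thbs1 lies furthest, at 2.34.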

How the data were processed

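RNA sequencing libraries from the periprostatic fat of 15 mice, 5 per group, were analysed. Per the labels' protocols, only RNA with an integrity number above 7 was sequenced, as stranded libraries after removal of ribosomal RNA. The submitters' processing notes name STAR, Cufflinks and the build mm10. Versions, the annotation, the use of strand in counting and the assignment of shared reads are not given in the sources used here. What the authors deposited is FPKM by gene symbol, 1 file per library. No read counts were used.

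Groups came from the labels. Each library was divided by a median-of-ratios factor over the 5874 genes that no library lists at 0 and whose mean FPKM is at least 1 (factors 0.481 to 3.23). Genes that reached a scaled FPKM of 1 in 5 or more libraries were tested as log2(scaled FPKM + 1), with a pseudocount of 1, in limma 3.58.1 (R 4.3.3, trend and robust moderation, group as the only factor, all 15 libraries). The test was run on simulated data with known changes in HFD placebo and no lane or scaling effect, so that run does not bear on those. P-values were adjusted by Benjamini-Hochberg over these 5615 genes, and in other fits over the genes of that fit, with 0.05 as the threshold. Depth was estimated from the lowest FPKM of 1636 single-transcript genes, of whose low values 59.6% to 70.7% were whole multiples of 1 unit to within 2%. Within groups, log2 values of library pairs correlated at 0.956 to 0.987. Same-numbered mice of different groups are different animals, and their deviations from the group means correlated at -0.21 to 0.36, so libraries were treated as unpaired.

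All 35 genes are named, those called with a mean of at least 2 with the value of every mouse and the others mostly by range or mean, and of the other pathway genes the 10 with the smallest adjusted p, of which 1 is not reported here. The members and lists, the markers included, were chosen with earlier results of these data known. The promoters of C6 and C7 were added after their values and motifs were seen. Cd55b, Adgre1 and Ly6g of the lists were not among the symbols, and Emr1, an older symbol, stands for Adgre1. Alternatives were other pseudocounts, filters and scalings, the lane, a replicate block, the 2 groups alone, limma without trend and robust moderation, leaving out each mouse, and, added after the data were seen, leaving out HFD placebo mice 4 and 5 together. Positions are from GENCODE vM21 on GRCm38. Protein sequences were not used here.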

Additional observations from a re-analysis of the deposited data

Results flagged for a closer look

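In 7 of 72 groups of 5 mice over the 24 tested genes, 1 mouse lay far from the other 4, with its gap to the nearest mouse divided by the range of the group above 0.71. By chance about 1 in 20 groups would be picked out so. LFD mouse 2 was lowest for C1qb, at 4.78 against 8.73 to 9.89 in the other 4 (gap share 0.775), and for C1ra, at 2.15 against 3.42 to 3.92 (0.718). LFD mouse 1 was highest for C7, at 6.34 against 2.67 to 3.71 (0.716), and for Thbd, at 11.2 against 6.09 to 7.55 (0.713). LFD mouse 3 was lowest for Cfd, at 391 against 717 to 847 (0.715). HFD placebo mouse 4 was lowest for C3, at 22.0 against 39.4 to 40.9 (0.917), the widest of these gaps. HFD estradiol mouse 1 was highest for C3ar1, at 1.90 against 0.683 to 1.01 (0.730).

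The extreme mice were often the same ones across the list. LFD mouse 2 was the lowest of its group for 16 of the 24 genes and LFD mouse 1 the highest for 17. HFD estradiol mouse 1 was the highest of its group for 17 and mouse 4 the lowest for 11, and HFD placebo mouse 4 was the lowest for 14.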

How the results depend on the processing

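Of the counts of called genes, that of HFD placebo minus LFD stayed within 16 to 20 under every setting run, and the leave-one-out range was 16 to 19. For HFD estradiol minus HFD placebo, 16 in the fit as reported, the count was 6 with FPKM as deposited, 8 with the sequencing lane as a term and 8 within lane 6, and 12 to 16 with each mouse left out. For HFD estradiol minus LFD, 13 as reported, FPKM as deposited gave 1 and the lane as a term 6, and the range was 8 to 13 with each mouse left out. Over all 5615 tested genes the counts as reported were 2431, 1706 and 432 in the 3 comparisons. With each mouse left out they ranged from 2154 to 2504, from 1413 to 1838 and from 300 to 433. The causes of these moves were not tested. As deposited, the median of all tested genes moved to 0.77, -0.27 and 0.49 in the 3 comparisons. No within-lane value exists for estradiol against LFD. With a replicate block, which pairs mice by number, the counts were 17, 17 and 13, and the calls of C3 in HFD placebo minus LFD (0.41, limma adjusted p = 0.041) and of Cfb in estradiol minus HFD placebo (-0.36, limma adjusted p = 0.048) were gained, with no other call of these genes changed. Without HFD placebo mice 4 and 5 the first 2 counts were 18 and 14. With no filter on low values 20, 18 and 10 of 33 genes were called. In HFD placebo minus LFD the sign turned with FPKM as deposited for C2 (0.01), C7 (0.30), Cd55 (0.87), Clu (0.16) and F3 (0.65), with limma adjusted p of 0.979, 0.395, 0.061, 0.684 and 0.044, and at a constant sum for Cd55 (0.30) and F3 (0.23). In estradiol minus HFD placebo it turned, with no call, for C1ra (-0.15), C3 (-0.22) and F3 (-0.19) as deposited, for C3 (-0.04) without HFD placebo mice 4 and 5, and for Serping1 with the lane as a term and within lane 6 (0.00 in both). In estradiol minus LFD it turned, with no call, for C2 (0.40), Cfd (0.38), Clu (0.43), Thbd (0.15) and Serpine2 (0.33) as deposited and for C2 (0.11), Clu (0.12) and Serpine2 (0.04) at a constant sum. With each mouse left out no called gene changed sign, while 4 uncalled values crossed 0, Cd55 (-0.16 to 0.05) and F3 (-0.04 to 0.03) in HFD placebo minus LFD, and C3 (-0.05 to 0.20) and Serping1 (-0.17 to 0.03) in estradiol minus HFD placebo. In LFD libraries an estimated 20.6 to 40.1 fragments lay behind each unit of scaled FPKM for a transcript of 2 kb, so the genes under the tested level rest on few fragments there.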
